A study of Mus musculus with 2 samples.

Results

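Cytochrome P450 enzymes were followed in single-barcode RNA of mouse liver during concanavalin A hepatitis. The family was taken by gene symbol, as every feature named Cyp with a number, letters and a number (a final letter, as in Cyp4a12b, allowed), apart from Cyp51, Cyp7a1, Cyp8b1, Cyp27a1 and Cyp7b1. This rule found 95 of the 32287 features. Of these, 39 had at least 20 UMIs (unique molecular identifiers, each counting 1 captured RNA molecule) over both libraries and are the measured members. A further 23 were detected below that minimum and 33 had no UMI in either library.

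The livers came from wild-type C57BL/6J mice given an adeno-associated virus (AAV) at 4 weeks of age, which carried a scrambled control sequence (scramble) or an RNA hairpin aimed at Bicd2 (shBicd2), whose product is an adaptor of the dynein motor. After 3 weeks both groups received 15 mg/kg of concanavalin A by vein, a plant lectin used to provoke T cell hepatitis, and 6 hours later the tissue was taken. Neither group went without concanavalin A or without virus, so no value here describes untreated liver. Each group held 1 library, the labels do not say how many animals it came from or their sex, and no test between groups was possible; every interval below is at 95% and covers counting error only.

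P450 enzymes hold a heme whose iron is gripped by a cysteine of the protein, and they use it to insert an oxygen atom into a substrate. Electrons reach most of them from NADPH through the reductase Por in the endoplasmic reticulum, while a few in mitochondria take them from ferredoxin. Hepatocytes are the main site of the drug-metabolising members, whose transcripts are often lowest near the portal vein and highest near the central vein, and which are known to fall in inflamed liver.

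The bases that code for the heme-binding loop, the stretch around that cysteine, are shown because they mark the family and show how alike the members of a subfamily are. A search of GENCODE transcripts (GRCm38) for the pattern of this loop found exactly 1 copy in 37 of the 39 measured members, with 31 distinct sequences of 30 bases. Capitals mark the cysteine codon.
Cyp2c70: ttctcagcaggaagaagagctTGTattgga
Cyp2c29: ttttcaacaggaaaacggattTGTgctgga
Cyp2d9: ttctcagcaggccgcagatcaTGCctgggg
Cyp2d10: ttctcagcaggccgcagatcaTGCctgggt
Cyp2e1: ttttctgcaggaaagcgcgtgTGTgttgga
Cyp3a11: tttgggaatggacccaggaacTGCcttggc
Cyp3a25: tttggaaatggacccaggaacTGCataggc
Cyp4f15: ttctccgctgggcccaggaacTGCatagga
Cyp17a1: ttcggagctggtccccgatcgTGCattgga
Cyp21a1: tttggctgtggggcacgcgtgTGCctggga
Cyp2d22 and Cyp2d26 carry the same 30 bases as Cyp2d9. Across the 60 pairs of measured members within a subfamily the loops differed at a median of 4 bases (0 to 13), against 13 (5 to 19) over the 606 pairs from different subfamilies. The codon was TGT in 19 members and TGC in 18.

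Start sites were compared next, since many members of a subfamily lie side by side in the genome yet differed between the libraries. RefSeq (GRCm38.p6) gave the 250 bases before the start for 30 of the 39 measured members. Those of 4 members are shown, from members with large or opposed differences between the libraries, with capitals for matches on either strand to the TATA box (TATAAA), the CCAAT box and a word typical of HNF4 sites (CAAAGTCCA). A match on the other strand is printed as its reverse complement.
Cyp2c70 (chr19:40187287-40187536, minus strand): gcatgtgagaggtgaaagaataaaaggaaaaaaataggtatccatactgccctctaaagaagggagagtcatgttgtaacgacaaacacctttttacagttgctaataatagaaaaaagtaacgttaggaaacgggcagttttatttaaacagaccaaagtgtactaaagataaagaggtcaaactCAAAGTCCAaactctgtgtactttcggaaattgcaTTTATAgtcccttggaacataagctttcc
Cyp3a11 (chr5:145879855-145880104, minus strand): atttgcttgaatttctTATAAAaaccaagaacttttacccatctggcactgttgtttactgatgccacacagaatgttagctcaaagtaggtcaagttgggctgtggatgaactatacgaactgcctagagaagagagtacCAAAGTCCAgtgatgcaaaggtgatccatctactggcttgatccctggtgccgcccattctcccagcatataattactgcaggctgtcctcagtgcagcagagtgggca
Cyp2d9 (chr15:82452127-82452376, plus strand): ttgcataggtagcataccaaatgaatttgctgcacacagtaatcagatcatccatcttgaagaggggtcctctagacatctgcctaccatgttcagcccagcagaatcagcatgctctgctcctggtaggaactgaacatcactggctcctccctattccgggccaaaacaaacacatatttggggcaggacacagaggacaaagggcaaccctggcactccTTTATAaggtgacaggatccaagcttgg
Cyp2d26 (chr15:82794246-82794495, minus strand): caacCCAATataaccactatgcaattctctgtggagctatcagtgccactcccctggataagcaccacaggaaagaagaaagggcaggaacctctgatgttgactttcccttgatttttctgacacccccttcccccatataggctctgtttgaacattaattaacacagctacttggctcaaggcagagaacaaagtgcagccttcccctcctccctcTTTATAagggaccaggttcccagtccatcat
The TATAAA match lay 29 bases before the RefSeq start in Cyp2c70, 28 in Cyp2d9 and 31 in Cyp2d26, and 234 bases before it in Cyp3a11. The annotations place the start differently, and the GENCODE gene spans given below reach upstream of the RefSeq start in all 4, so that these windows overlap them. TATAAA was present in 13 of the 30 members (43.3%) and in 13% of 27025 RefSeq promoters of the same length. CCAAT was found in 14 members (46.7%, against 34.5%). CAAAGTCCA was in 5 (16.7%, against 0.381%), namely Cyp2c40, Cyp2c67, Cyp2c68, Cyp2c70 and Cyp3a11. Other words were searched and are not marked. An HNF6/Onecut-type word (ATCAAT) was in 6 members (20%, against 6.97%), and a STAT-type word in 1 (3.33%, against 7.18%). No member had the antioxidant element word (10.1% of all promoters). None had words of HNF1, C/EBP or PPAR type (0.411%, 0.17% and 0.037% of all promoters). All of these are matches of letters in a window and say nothing about which factor binds. Cyp2c40, Cyp2c67 and Cyp2c68 are near copies of each other.

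The scramble-labelled library kept 2729 barcodes with 4892085 UMIs (median 1502) and the shBicd2-labelled library kept 2941 with 5417929 (median 1498). Bicd2 was not shown to be lower where it was targeted, with 80 and 107 UMIs, or 16.4 and 19.8 CPM (UMIs of a gene per 1000000 UMIs of the library), a ratio of 1.21 (0.896 to 1.63). Libraries are therefore called by their labels, and every library ratio below is the shBicd2-labelled library over the scramble-labelled library. EGFP, a reporter in the reference whose vector the labels do not name, stood at 69.3 and 894 CPM. When barcodes were clustered, each of the 8 main hepatocyte clusters was mostly of 1 library, while the other 6 clusters held barcodes of both, and 3 barcode sequences occurred in both. Other abundant RNAs also differed, namely the nuclear RNAs Malat1 (36453 and 26792 CPM) and Neat1 (65836 and 45063 CPM) and the hepatocyte secretory gene Alb (1072 and 1721 CPM, ratio 1.61, 1.55 to 1.66), and their part in the P450 ratios was not tested. Levels are CPM over all kept barcodes unless stated. UMIs are counted near the 3′ end and are not divided by length, so levels are compared between libraries and groups of barcodes and not between genes.

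Over all kept barcodes the summed P450 level was 2483 CPM in the scramble-labelled library and 2099 CPM in the shBicd2-labelled library, a ratio of 0.845 (0.824 to 0.867). Cyp2c70 alone turned the direction of that sum. Without it the sums were 1453 and 1956 CPM, for a ratio of 1.35 (1.31 to 1.39). By point ratio 17 of the 39 measured members were at least 1.5-fold higher in the shBicd2-labelled library, where 24.3% of the 11623 genes with at least 20 UMIs were. At least 1.5-fold lower were 7 members, where 10.8% of all such genes were. The other 15 lay between. The median log2 ratio of the members was 0.38, and that of all tested genes 0.14.

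**Figure D1:**
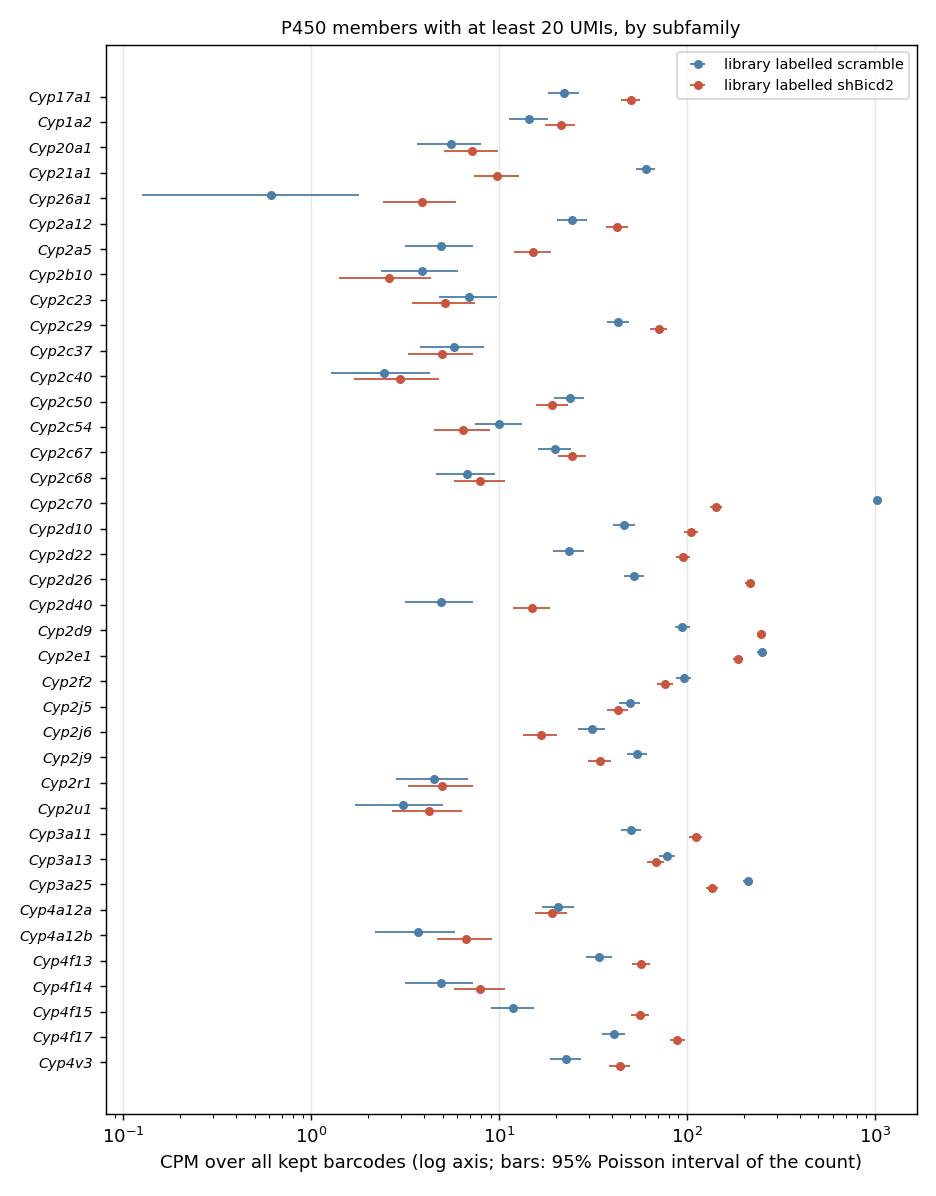
Level of each of the 39 measured members in CPM (log axis) in the scramble-labelled library (blue) and the shBicd2-labelled library (red), with 95% Poisson intervals of the count. The red points lie to the right for all 5 Cyp2d and all 4 Cyp4f members, and far to the left for Cyp2c70 and Cyp21a1.

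Whether members can be told apart by their reads bears on every value that follows. Of the 39 measured members, 18 shared no 50-base stretch of the last 500 transcript bases with another gene, 21 shared some and 15 shared over 10% of such stretches. Cyp2c40 shared 74.3%, and Cyp2c67 and Cyp2c68 51.2% each, so their separate levels are uncertain. Cyp4a12a and Cyp4a12b shared 37.0% with each other. In the Cyp2d group the shared part was 0% for Cyp2d22, 23.9% for Cyp2d9 and 33.5% for Cyp2d40. Cyp2c70, Cyp2c29 and Cyp21a1 shared none. Cyp2f2 and Cyp2u1 each overlap an annotated antisense gene, and Cyp21a1 overlaps the pseudogene Tnxa on the opposite strand.

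The Cyp2c genes, which act on drugs, arachidonic acid and bile acids, lie on chromosome 19 (39007019 to 44029208 for all 15 in the file, GRCm38). Their summed level was 1149 CPM in the scramble-labelled library and 288 CPM in the shBicd2-labelled library, a ratio of 0.250 (0.236 to 0.265). This difference was that of 1 gene. Cyp2c70 (40153353 to 40187333, minus strand), which makes muricholic acids in mouse liver, stood at 1030 CPM (1002 to 1059) and 143 CPM (133 to 153), a ratio of 0.139 (0.128 to 0.150). The other Cyp2c genes together stood at 119 and 145 CPM, for a ratio of 1.21 (1.09 to 1.35).

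Among those other genes Cyp2c29 (39269405 to 39330713, plus strand), an oxidase of drugs and fatty acids, was past the fold in the other direction, at 42.9 and 70.7 CPM, for a ratio of 1.65 (1.39 to 1.96). Cyp2c50, a close relative of Cyp2c54 and Cyp2c37, stood at 23.7 and 19.2 CPM, for a ratio of 0.810 (0.615 to 1.06). Cyp2c54 stood at 10.0 and 6.46 CPM, and its ratio of 0.645 (0.406 to 1.02) had an interval that reached 1. Cyp2c67 had a ratio of 1.24 (0.946 to 1.62) and Cyp2c23, an arachidonic acid epoxygenase of kidney and liver, 0.744 (0.434 to 1.26). So 2 adjoining genes, Cyp2c70 and Cyp2c50, differed from each other in their ratios by more than their intervals allow. The next lowest ratio among measured Cyp2c members was the 0.645 of Cyp2c54.

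The Cyp2d genes, the mouse relatives of a human enzyme of many drugs, lie within chromosome 15, 82370527 to 82794294. All 5 measured Cyp2d members were past the fold, and their sum was 222 CPM (209 to 236) in the scramble-labelled library and 680 CPM (658 to 703) in the shBicd2-labelled library, a ratio of 3.06 (2.86 to 3.28). Cyp2d26 (82790101 to 82794294, minus strand) stood at 52.3 and 216 CPM, for a ratio of 4.13 (3.61 to 4.75). Cyp2d22 (82370527 to 82380260, minus strand) stood at 23.5 and 95.05 CPM, for a ratio of 4.04 (3.30 to 4.99). Cyp2d22 was the Cyp2d member whose last 500 transcript bases share no 50-base stretch with another gene, and its ratio was close to that of Cyp2d26.

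Cyp2d9 (82433437 to 82456845, plus strand), a testosterone hydroxylase of male liver, stood at 94.2 and 248 CPM, for a ratio of 2.63 (2.37 to 2.93). Cyp2d10 had a ratio of 2.27 (1.94 to 2.66) and Cyp2d40 3.05 (1.91 to 5.03). All 5 measured Cyp2d members thus had the higher level in the shBicd2-labelled library, those with identical heme loop bases (Cyp2d9, Cyp2d22 and Cyp2d26) and those without. Of the other 3 Cyp2d genes in the file, 2 were detected below the minimum and 1 had no UMI.

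**Figure D2:**
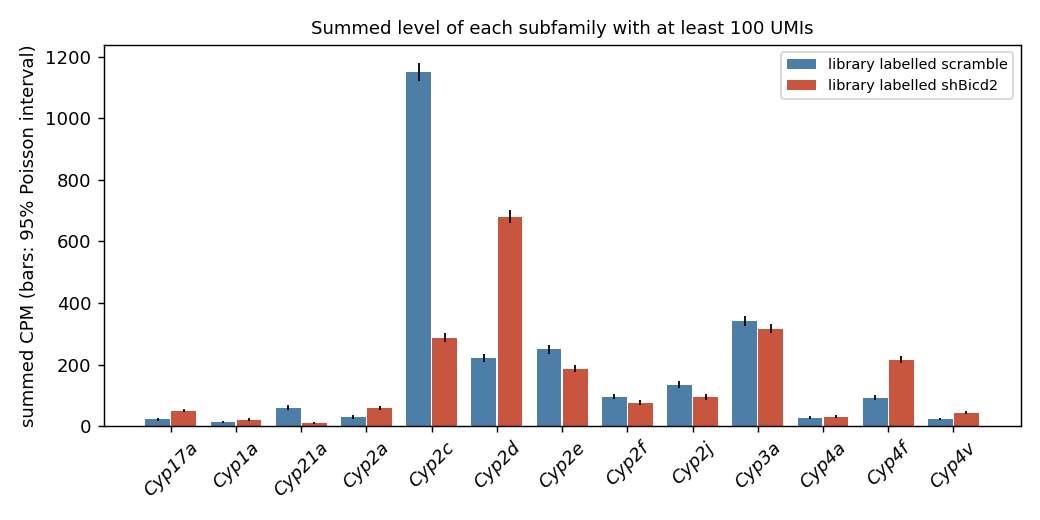
Summed CPM of the 13 subfamilies with at least 100 UMIs in the scramble-labelled library (blue) and the shBicd2-labelled library (red), with 95% Poisson intervals. The Cyp2c sum was 1149 against 288 CPM, the Cyp2d sum was 222 against 680 CPM, and the Cyp3a sums were close, at 341 and 316 CPM.

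The Cyp3a genes, which oxidise steroids, bile acids and a wide range of drugs, are on chromosome 5. Their sums, 341 and 316 CPM, gave a ratio of 0.927 (0.866 to 0.993), which hid opposite differences of its members. Cyp3a11 (145854426 to 145879964, minus strand), the mouse enzyme most used as a counterpart of the main human drug-metabolising P450, stood at 50.5 and 111 CPM, for a ratio of 2.20 (1.90 to 2.57). Cyp3a25 (145977194 to 146009618, minus strand), its neighbour, stood at 212 and 136 CPM, for a ratio of 0.642 (0.583 to 0.706). Cyp3a13, at 78.3 and 68.1 CPM, had a ratio of 0.870 (0.752 to 1.01).

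Other drug-metabolising members of family 2 lie on chromosome 7 and family 1 on chromosome 9. Cyp2e1 (chromosome 7, 140763739 to 140774987, plus strand), the enzyme of ethanol and acetaminophen oxidation and a marker of the zone around the central vein, stood at 249.2 and 187 CPM, for a ratio of 0.751 (0.690 to 0.817). Cyp2f2, the naphthalene oxidase known from the zone around the portal vein, stood at 96.3 and 76.6 CPM, for a ratio of 0.796 (0.695 to 0.910). Cyp1a2, a target of the aryl hydrocarbon receptor that oxidises caffeine, stood at 14.5 and 21.2 CPM, for a ratio of 1.46 (1.08 to 1.995). None of these 3 passed the fold. Cyp2e1 and Cyp2f2 had ratios on the same side of 1 and Cyp1a2 on the other, and no comparison of zones is drawn from them.

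Of the 4 Cyp2a genes in the file 2 were measured, and both were past the fold. Cyp2a5 (26835305 to 26843548, plus strand), the coumarin and nicotine hydroxylase, had 24 and 82 UMIs, or 4.91 and 15.1 CPM, for a ratio of 3.09 (1.94 to 5.09). Cyp2a12, a steroid hydroxylase, stood at 24.5 and 42.4 CPM, for a ratio of 1.73 (1.38 to 2.18). Cyp2b10, the classic target of the receptor CAR, had 19 and 14 UMIs, and its ratio of 0.665 (0.309 to 1.40) could not be told from 1 at this depth.

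Members that act on fatty acids and eicosanoids differed by subfamily. Of the 9 Cyp4f genes in the file, which hydroxylate leukotrienes and long fatty acids at the chain end, 4 were measured and these were past the fold. The summed level of the 9 was 93.0 and 216 CPM, a ratio of 2.32 (2.08 to 2.60). Cyp4f15 (chromosome 17, 32685627 to 32703352, plus strand) stood at 11.9 and 56.3 CPM, for a ratio of 4.75 (3.58 to 6.40). Cyp4f17 stood at 40.9 and 89.0 CPM, for a ratio of 2.18 (1.84 to 2.58). Cyp4f13 had a ratio of 1.67 (1.38 to 2.03), and Cyp4f14 1.62 with an interval of 0.960 to 2.79 that included 1. Cyp4v3, another fatty acid hydroxylase (chromosome 8), stood at 22.7 and 43.9 CPM, for a ratio of 1.94 (1.54 to 2.45).

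The Cyp2j genes, epoxygenases of arachidonic acid on chromosome 4, lay on the other side, with sums of 135 and 94.5 CPM and a ratio of 0.702 (0.624 to 0.789). Cyp2j6 stood at 31.1 and 16.6 CPM, for a ratio of 0.535 (0.407 to 0.698), and Cyp2j9 at 54.0 and 34.3 CPM, for a ratio of 0.636 (0.525 to 0.770). Cyp2j5 had a ratio of 0.866 (0.720 to 1.04). The Cyp4a genes, fatty acid hydroxylases driven by the receptor PPAR alpha, were close in sum, at 26.6 and 30.6 CPM (ratio 1.15, 0.911 to 1.46). Their best known inducible members, Cyp4a10 and Cyp4a14, had only 16 and 11 UMIs over both libraries and fell below the minimum. Cyp2u1, also a fatty acid hydroxylase, had 15 and 23 UMIs, a ratio of 1.38 (0.692 to 2.85).

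Steroid, retinoid and vitamin D enzymes gave some of the most distant ratios. Cyp21a1 (chromosome 17, 34801348 to 34804561, minus strand), the steroid hydroxylase known for cortisol and aldosterone synthesis in the adrenal, stood at 60.5 and 9.78 CPM, for a ratio of 0.162 (0.118 to 0.217). Cyp17a1 (chromosome 19, 46667165 to 46673172, minus strand), the hydroxylase and lyase of androgen synthesis, stood at 22.1 and 50.2 CPM, for a ratio of 2.27 (1.81 to 2.87). The 2 steroid enzymes therefore lay on opposite sides. Cyp26a1, which clears retinoic acid, had 3 and 21 UMIs, and its ratio of 6.32 carried an interval of 1.89 to 33.1. Cyp2r1, a vitamin D hydroxylase, had 22 and 27 UMIs (ratio 1.11, 0.608 to 2.04), and Cyp20a1, a member of unknown function, 27 and 39 UMIs (1.30, 0.778 to 2.22).

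The members nearest the minimum show how little lies behind the smallest values. Just below it were Cyp4f18 with 19 UMIs and Cyp4f16 with 16, and just above it Cyp26a1 with 24 and Cyp2c40 with 28. By the rule that a count of 0 allows up to 3 UMIs of the library total, it allows 0.613 CPM in the scramble-labelled library and 0.554 CPM in the shBicd2-labelled library. The upper bounds of the exact Poisson interval are 0.754 and 0.681 CPM.

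The labels give no sex, and mouse liver P450s differ by sex, so sex-biased members were listed beside sex-linked genes. Of 10 members known as higher in female liver, 7 had no UMI in either library, namely Cyp2b9, Cyp2b13, Cyp2a4, Cyp3a16, Cyp3a41a, Cyp3a41b and Cyp3a44. Of the other female-biased members, Cyp2c69 had 2 and 7 UMIs, Cyp2c40 had 12 and 16, and Cyp17a1 had the values given above. The male-biased Cyp2d9 was present in both libraries, as were Cyp4a12a, at 20.7 and 19.0 CPM (ratio 0.921, 0.693 to 1.22), and Cyp4a12b, at 3.68 and 6.65 CPM (1.81, 0.999 to 3.38). The Y-linked genes Ddx3y (979 and 935 UMIs), Uty (859 and 793), Eif2s3y (624 and 640) and Kdm5d (427 and 484) were found in both, while Xist had 10 and 12 UMIs. Both libraries thus carried Y-linked RNA and lacked the same 7 female-biased members.

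The next comparison asked how the members vary with the mitochondrial share of a barcode. The median share was only 0.187% and 0.359% in the scramble-labelled and shBicd2-labelled libraries. Barcodes with 5 to 25% mitochondrial UMIs (152 and 220) were set against those under 1% (2272 and 2247), with mitochondrially encoded genes left out of the totals. The summed P450 level was higher in the mitochondria-rich barcodes of both libraries. It rose from 2323 to 5886 CPM in the scramble-labelled library, a ratio of 2.53 (2.36 to 2.72), and from 1838 to 6171 CPM in the shBicd2-labelled library, a ratio of 3.36 (3.17 to 3.55).

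By point ratio 23 of 32 members with enough UMIs were at least 1.5-fold higher in the mitochondria-rich barcodes of the scramble-labelled library, where 24.7% of 9706 genes were. In the shBicd2-labelled library it was 24 of 36 members, where 23.3% of 10259 genes were. At least 1.5-fold lower were 1 of 32 members (32.8% of all genes) and 6 of 36 (39.6% of all genes). Of the 32 members tested in both libraries 20 were higher in both, and Cyp17a1 was lower in both. No share of all genes higher or lower in both is given here, so these joint counts have no background. The members' median log2 ratios were 2.61 and 1.68, those of all genes 0.03 and -0.15. Mitochondria-rich barcodes were shallower, with medians of 859 and 873 UMIs against 1632 and 1717, and 78.3% and 72.7% of them lay in the hepatocyte-like cluster described below. The part of depth or of cell content in these ratios was not tested, and barcodes of 1 library are not replicates.

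Cyp3a11 showed this most clearly among well-counted members. It stood at 26.7 CPM in the mitochondria-poor and 545 CPM in the mitochondria-rich barcodes of the scramble-labelled library, a ratio of 20.4 (15.1 to 27.5). In the shBicd2-labelled library it stood at 60.4 and 914 CPM, for a ratio of 15.1 (12.6 to 18.2). Cyp1a2 had ratios of 17.0 and 14.6, Cyp2c50 15.3 and 12.6, and Cyp2c29 8.36 and 10.5 in the scramble-labelled and shBicd2-labelled libraries. Drug-metabolising members with less distant ratios included Cyp2e1, at 4.22 (3.47 to 5.08) and 7.08 (6.04 to 8.27), and Cyp2f2, at 6.05 and 4.54.

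Other members did not share this pattern. Cyp3a25 stood at 215 and 177 CPM in the scramble-labelled library and at 140 and 178 CPM in the shBicd2-labelled library, ratios of 0.823 (0.530 to 1.22) and 1.27 (0.905 to 1.75). The intervals of both ratios lie below those of its neighbour Cyp3a11 in the same library. Cyp17a1 had 1 and 4 UMIs in the mitochondria-rich barcodes, with ratios of 0.305 (0.00765 to 1.74) and 0.324 (0.0875 to 0.840). Cyp4f17, at 0.693 (0.187 to 1.81) and 0.576 (0.295 to 1.02), was not higher in either library. The summed Cyp4f level gave 1.16 (0.644 to 1.94) and 0.896 (0.649 to 1.21), against 6.40 (5.36 to 7.60) and 2.003 (1.77 to 2.26) for the summed Cyp2d level. The Cyp4f sum hid unlike members. Cyp4f14 had 7.18 (1.76 to 22.0) and 10.65 (4.98 to 21.8), on 4 and 13 UMIs in the mitochondria-rich barcodes. Cyp4f15 had 2.03 (0.404 to 6.33) and 0.0728 (0.00184 to 0.409), on 3 and 1 UMIs there. Cyp4f13 had 0.808 (0.217 to 2.11) and 1.20 (0.676 to 1.99).

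**Figure D3:**
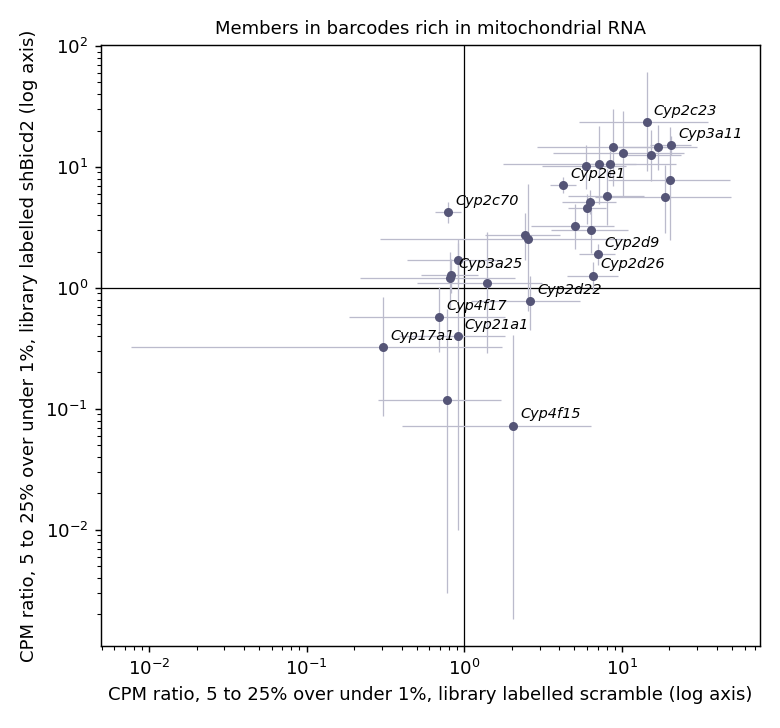
Ratio of CPM in barcodes with 5 to 25% mitochondrial UMIs over barcodes with under 1%, in the scramble-labelled library (x axis) and the shBicd2-labelled library (y axis), both on log axes, for the 32 members tested in both, with 95% counting intervals. Most points lie in the upper right, with Cyp17a1 at the lower left and Cyp2c70 at 0.792 on the x axis and 4.22 on the y axis.

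The difference between the libraries itself changed with the mitochondrial share. For Cyp2c70 the library ratio was 0.116 (0.106 to 0.127) below 1% mitochondrial UMIs, from 1055 and 123 CPM. It was 0.176 (0.140 to 0.220) at 1 to under 5%, and 0.620 (0.476 to 0.806) at 5 to 25%, from 836 and 518 CPM. The interval of the last stratum did not overlap those of the others. Barcodes with no mitochondrial UMI (217 and 77) gave 0.157 (0.0827 to 0.274).

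Cyp2d26 went from 40.9 and 213 CPM below 1%, a ratio of 5.22 (4.44 to 6.16), to 269 and 270 CPM at 5 to 25%, a ratio of 1.002 (0.659 to 1.54). Its levels thus met in this stratum. So did those of Cyp2d9, at 73.9 and 234 CPM below 1% (ratio 3.16, 2.79 to 3.60) and 517 and 444 CPM at 5 to 25% (0.858, 0.629 to 1.18). Cyp2e1 went from 0.634 (0.571 to 0.703) to 1.06 (0.852 to 1.33). In the hepatocyte-like cluster described below, with mitochondrial genes in the totals, the levels of these members did not meet. There Cyp2d26 had a library ratio of 1.43 (1.02 to 2.02), Cyp2d9 1.34 (1.04 to 1.73) and Cyp2e1 1.47 (1.23 to 1.77). Cyp3a11 and Cyp2c29 kept their side, with ratios of 1.68 (1.28 to 2.20) and 1.88 (1.26 to 2.86) at 5 to 25%. Cyp2d10 too stayed on the higher side there, at 1.88 (1.25 to 2.90). The Cyp2d members therefore were not alike at 5 to 25%, although all 5 were past the fold over all barcodes.

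Of the 17 members higher in the shBicd2-labelled library over all kept barcodes, 10 had enough UMIs at 5 to 25%. Of these 4 were past the fold there and 9 lay on the same side of 1, Cyp2d9 being the exception. Of the 7 lower members 2 could be tested, and Cyp2c70 was past the fold while Cyp3a25 was at 1.01 (0.598 to 1.73). These members were picked by their ratio over all barcodes, so the share of all genes is no like background for them. Without that choice, 7 of the 22 members tested at 5 to 25% were at least 1.5-fold higher (20.9% of all genes) and 3 lower (24% of all genes). The summed family level was nearly equal in this stratum, at 5886 and 6171 CPM, for a ratio of 1.05 (0.962 to 1.14), against 0.791 (0.768 to 0.814) below 1%. In the mitochondria-rich hepatocyte-like cluster described below it was not, at 4672 and 6479 CPM, for a ratio of 1.39 (1.29 to 1.49).

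**Figure D4:**
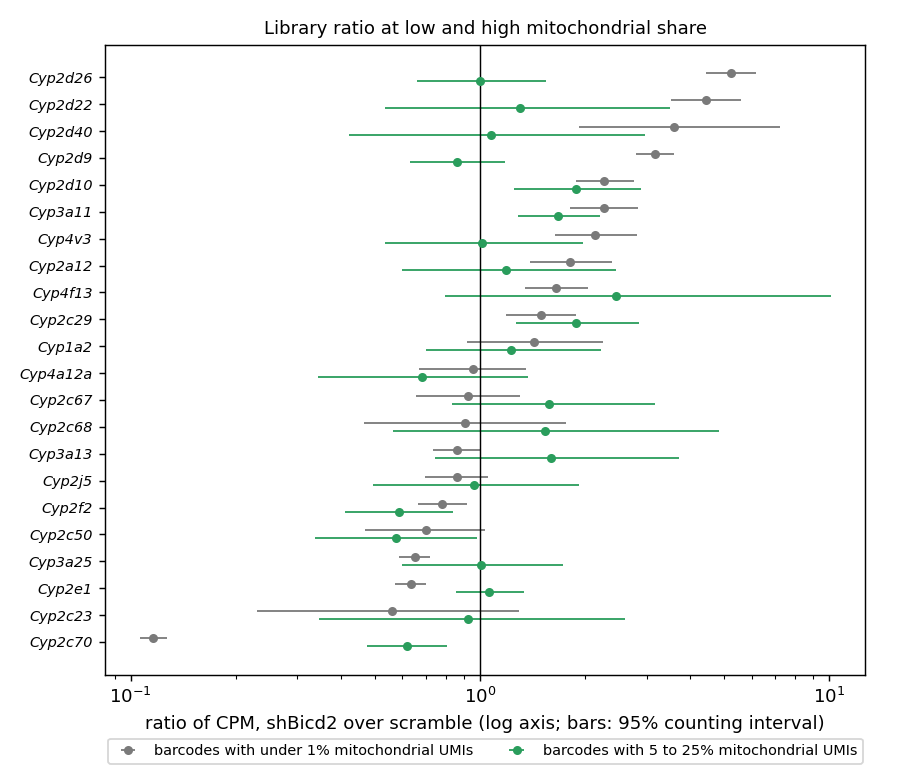
Ratio of CPM, shBicd2-labelled library over scramble-labelled library (log axis), for the 22 members tested in both strata, in barcodes with under 1% (grey) and 5 to 25% (green) mitochondrial UMIs, with 95% counting intervals. The green points of Cyp2d26, Cyp2d9, Cyp2e1 and Cyp3a25 lie near 1, and that of Cyp2c70 at 0.620 against 0.116 for the grey point.

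EGFP split the barcodes in another way. Barcodes with at least 1 EGFP UMI numbered 167 of 2729 in the scramble-labelled library and 808 of 2941 in the shBicd2-labelled library, and they were deeper, with medians of 2174 and 2051 UMIs against 1457 and 1336. EGFP was left out of the totals. The summed P450 level was lower with EGFP in both libraries. In the scramble-labelled library it was 1638 CPM with EGFP and 2567 CPM without, a ratio of 0.638 (0.591 to 0.688), and in the shBicd2-labelled library 1696 and 2328 CPM, for a ratio of 0.729 (0.700 to 0.759). The median of all tested genes was also lower with EGFP, at log2 ratios of -0.45 and -0.48 in the scramble-labelled and shBicd2-labelled libraries. The medians of the members were -0.38 and -0.61.

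At least 1.5-fold lower with EGFP were 17 of 34 members in the scramble-labelled library and 19 of 37 in the shBicd2-labelled library. These shares, 50% and 51.4%, stand beside 48.1% and 44.7% of all genes, and 4 of the 17 (Cyp20a1, Cyp2a5, Cyp2c37 and Cyp2c54) had no UMI in the EGFP-bearing barcodes, where the depth allows no fold. At least 1.5-fold higher were 2 members in each (9.02% and 8.37% of all genes), and these were not the same members. Of the 34 tested in both, 12 were lower in both libraries, 8 of them with UMIs in every group. No share of all genes lower in both is given here. With the single-library shares near those of all genes, the joint count is not read as a trait of the family.

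Cyp2e1 was among those lower in both, at 265 CPM without and 84.5 CPM with EGFP in the scramble-labelled library, a ratio of 0.319 (0.223 to 0.442). In the shBicd2-labelled library it stood at 228 and 115 CPM, for a ratio of 0.504 (0.433 to 0.585). Cyp3a13 had ratios of 0.386 (0.209 to 0.656) and 0.454 (0.347 to 0.586), and Cyp3a11 0.253 (0.0921 to 0.560) and 0.615 (0.509 to 0.740). Cyp21a1 had 6 and 13 UMIs with EGFP, ratios of 0.211 (0.0766 to 0.464) and 0.578 (0.283 to 1.10). In the Cyp2d group Cyp2d26 stood at 0.544 (0.286 to 0.949) and 0.598 (0.522 to 0.683).

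Cyp3a25 and Cyp17a1 lay on the higher side with EGFP in both libraries. Cyp3a25 stood at 205 CPM without and 283 CPM with EGFP in the scramble-labelled library and at 104 and 194 CPM in the shBicd2-labelled library, ratios of 1.38 (1.14 to 1.67) and 1.86 (1.61 to 2.16). Cyp17a1 had ratios of 2.75 (1.66 to 4.41) and 1.49 (1.16 to 1.90). Each was thus past the fold in 1 library only, and the difference between the libraries was not tested. Cyp4v3, with 17 UMIs in EGFP-bearing barcodes of the scramble-labelled library, had ratios of 1.84 (1.03 to 3.11) and 1.27 (0.968 to 1.65). For Cyp2c70 the ratio was 0.504 (0.441 to 0.575) in the scramble-labelled library and 1.08 (0.928 to 1.25) in the shBicd2-labelled library.

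**Figure D5:**
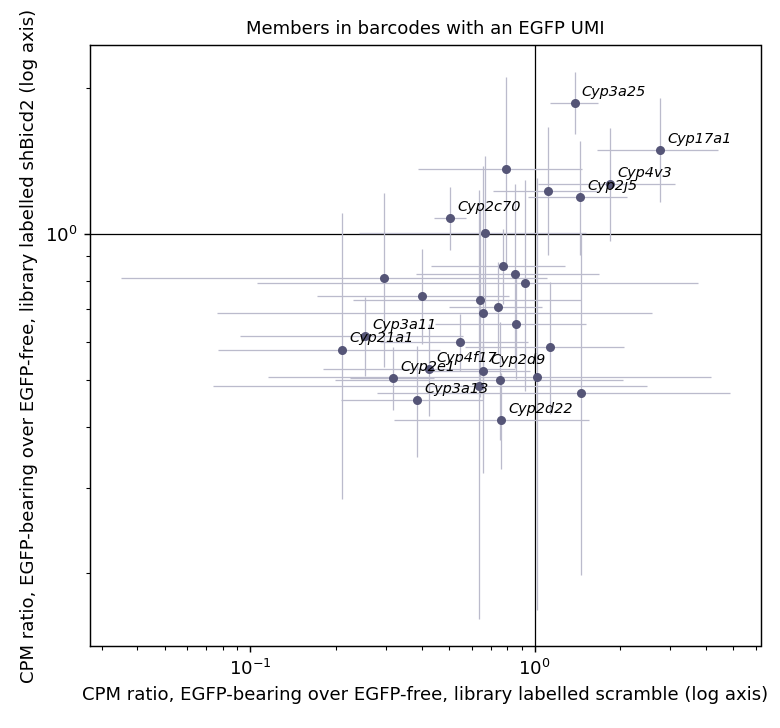
Ratio of CPM in EGFP-bearing over EGFP-free barcodes in the scramble-labelled library (x axis) and the shBicd2-labelled library (y axis), both on log axes, for the 30 members tested in both libraries and with a UMI in every group, with 95% counting intervals. Cyp3a25 and Cyp17a1 lie at the upper right, and Cyp2e1, Cyp3a13 and Cyp3a11 among the points at the lower left.

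The differences between the libraries were also present among barcodes without EGFP. There 17 of 38 members were at least 1.5-fold higher (27.8% of all genes) and 6 lower (9.5%). All 16 testable members of the 17 higher over all barcodes were past the fold. EGFP-free barcodes were 93.9% and 72.5% of the kept barcodes that set those calls, so this agreement was largely fixed in advance. Cyp2c70 had a ratio of 0.129 (0.117 to 0.142) without EGFP and 0.276 (0.231 to 0.328) with it. Cyp2d22 had 5.02 (4.05 to 6.27) and 2.72 (1.33 to 6.49). Cyp3a25 had 0.507 (0.448 to 0.573) and 0.683 (0.556 to 0.843).

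Clusters of barcodes gave the levels by cell class. No cluster of the 8 that held most barcodes (2190 and 2414 of the scramble-labelled and shBicd2-labelled libraries) reached the markers needed for a name. They are called the main hepatocyte barcodes because no class qualified, and not by a measured level. Their summed hepatocyte markers ranged from 10785 CPM in cluster 3 to 23754 CPM in cluster 1. Monocyte/macrophage-like barcodes had 9867 CPM of these markers, and a mixed cluster led by Mmp8 and Flt1 had 17362 CPM. A hepatocyte-like cluster with 7 of 12 hepatocyte markers raised was rich in mitochondrial RNA (246 and 227 barcodes, median share 5.88%). Its summed P450 level over both libraries was 5470 CPM (5284 to 5660), against 2116 CPM (2086 to 2146) in the main hepatocyte barcodes. Cyp3a11 stood at 629 CPM in that cluster and 48.7 CPM in the main hepatocyte barcodes, and Cyp2e1 at 814 and 180 CPM.

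P450 RNA was also counted where it is not made in quantity. Monocyte/macrophage-like barcodes (75 and 81, 12 of 14 markers raised) had 1489 CPM (1304 to 1692) and stellate/fibroblast-like barcodes (44 and 75) 1250 CPM (1056 to 1470) in sum, 0.704 and 0.591 times the main hepatocyte level. Their median depths were 735 and 767 UMIs, and 669 and 702, against 1648 and 1682 UMIs. Cyp2c70 stood at 344 CPM (54 UMIs) in the monocyte/macrophage-like barcodes of both libraries together. Of these UMIs 51 were in the scramble-labelled library (628 CPM) and 3 in the shBicd2-labelled library (39.5 CPM). The main hepatocyte barcodes had 1054 and 128 CPM. The part of free hepatocyte RNA in these levels was not tested, and no member at or below its main hepatocyte level is read here as expressed in these classes.

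With the 8 main hepatocyte clusters pooled, a few members were highest outside both these and the mitochondria-rich hepatocyte-like cluster, each on few UMIs there. Cyp20a1 stood at 59.5 CPM (7 UMIs) in stellate/fibroblast-like barcodes, against 5.32 CPM in the main hepatocyte barcodes. Cyp4f18, a leukotriene hydroxylase of myeloid cells that fell below the minimum, had 5 of its 19 UMIs in monocyte/macrophage-like barcodes, or 31.8 CPM, against 1.33 CPM. Cyp4f16, also below the minimum, had 2 UMIs in monocyte/macrophage-like barcodes, or 12.7 CPM, against 1.33 CPM. Cyp39a1, below the minimum too, had 2 UMIs in stellate/fibroblast-like barcodes, or 17.0 CPM, against 0.7765 CPM. For 3 other Cyp4f members the interval in the other class included the pooled level. Cyp4f17 stood at 80.7 CPM (44.1 to 135) on 14 UMIs in a mixed cluster led by Mmp8 and Flt1, against 67.2 CPM pooled, and at 163 CPM in hepatocyte cluster 1. Cyp4f13 stood at 69.2 CPM (35.75 to 121) on 12 UMIs in the same mixed cluster, against 46.9 CPM pooled and 78.2 CPM in cluster 1. Cyp4f15 stood at 40.1 CPM (18.4 to 76.2) on 9 UMIs in a mixed cluster led by Ighm and Ebf1, against 36.4 CPM pooled. Cyp26a1 had 1 UMI in monocyte/macrophage-like barcodes, 6.36 CPM, against 8.10 CPM on 14 UMIs in hepatocyte cluster 4.

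Main hepatocyte clusters differed in their leading members, and each was mostly of 1 library, so that a cluster and a library cannot be told apart. These members helped to form the clusters and their levels are given as a description. Cluster 2 (1059 and 35 barcodes of the scramble-labelled and shBicd2-labelled libraries) had Cyp2c70 at 1186 CPM and Cyp21a1 at 111 CPM. Cyp2c70 was higher still in clusters 7 (1815 CPM) and 9 (1347 CPM). Cluster 7 (331 and 3 barcodes), whose leading genes included Glul, a marker of the zone around the central vein, had Cyp2e1 at 756 CPM and Cyp2f2 at 22.0 CPM.

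Cluster 1 (7 and 1188 barcodes) had Cyp2d9 at 354 CPM, Cyp2d26 at 278 CPM, Cyp4f15 at 115 CPM and Cyp2c70 at 77.2 CPM. The smaller cluster 13 (8 and 66 barcodes) had Cyp2d9, Cyp2d26 and Cyp4f15 higher, at 501, 321 and 148 CPM. Cluster 4 (13 and 639 barcodes), led by EGFP and heat shock genes, had Cyp3a25 at 210 CPM, Cyp17a1 at 79.3 CPM and Cyp2e1 at 51.5 CPM. Cyp3a25 was higher in clusters 3 (279 CPM) and 9 (236.5 CPM). In cluster 6 (11 and 364 barcodes) Cyp2a5 stood at 66.0 CPM on 45 UMIs, out of 106 over both libraries. Within the main hepatocyte barcodes as a whole, 17 of 38 members were at least 1.5-fold higher in the shBicd2-labelled library (25.1% of all genes) and 7 lower (10.8%).

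Genes that serve the P450 enzymes were compared from lists of redox partners, heme enzymes and regulators. Of 7 redox partners 4 were at least 1.5-fold higher in the shBicd2-labelled library and none lower (24.3% and 10.8% of all tested genes were), with a median log2 ratio of 0.65 against 0.14 for all tested genes. Por, the reductase that feeds electrons to the microsomal members, stood at 237 and 378 CPM, for a ratio of 1.59 (1.48 to 1.71). Cyb5a, the cytochrome b5 that aids some of them, had 1.90 (1.64 to 2.21). The mitochondrial reductase Fdxr and the heme-binding Pgrmc1 had 1.58 and 1.57.

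Of 12 genes of heme synthesis and breakdown 2 were higher and 1 lower, again beside 24.3% and 10.8% of all tested genes, so that neither count stands out, with a median log2 ratio of 0.29. Alas1, the rate-limiting enzyme of heme synthesis in liver, stood at 422 and 284 CPM, for a ratio of 0.674 (0.630 to 0.720). Its ratio did not pass the fold. Hmox1, which opens the heme ring, stood at 528 and 649 CPM, for a ratio of 1.23 (1.17 to 1.29). The biliverdin reductases lay apart, Blvrb at 3.30 (2.31 to 4.80) and Blvra at 0.624 (0.401 to 0.961), and Ppox, of heme synthesis, had 1.71.

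Of 19 measured regulators out of 20, 4 were higher and 5 lower, with a median log2 ratio of -0.15. The 4 higher are near the 24.3% of all tested genes, and 10.8% of these were lower. The lower ones were Esr1, the estrogen receptor, at 0.193 (0.130 to 0.279), the hepatocyte factor Onecut1 at 0.248 (0.197 to 0.311), Nr5a2, a nuclear receptor of bile acid genes, at 0.493, the PPAR alpha gene Ppara at 0.609 and the aryl hydrocarbon receptor Ahr at 0.634. The higher ones included the oxidative stress factor Nfe2l2 at 2.06 (1.90 to 2.24), the growth hormone signal carrier Stat5b at 1.67 and the hepatocyte factor Foxa2 at 1.60. Nr1i2, the receptor PXR that drives Cyp3a11, had a ratio of 1.24 (1.08 to 1.41), and Nr1i3, the receptor CAR that drives Cyp2b10, had 73 UMIs in each library. Hnf4a, the factor after which the CAAAGTCCA word is named, had 0.682 (0.616 to 0.754). Beside it, the 5 members with that word in the promoter ranged in ratio from 0.139 for Cyp2c70 to 2.20 for Cyp3a11.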

How the data were processed

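The deposited matrices hold UMI counts per gene and barcode without normalization, made by the authors with Cell Ranger, version 6.1.2 per the file headers and 6.0.1 per the submitters' processing notes, which also list Seurat 4.0.3 and the mm10 build. The libraries were prepared with the 10x 3′ kit, per the labels' protocols. The handling of introns and doublets before deposit is not given in the sources used.

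Barcodes needed 200 genes or more and no more than 25% mitochondrial UMIs, and the highest Scrublet scores (scanpy 1.11.5; 62 and 73 barcodes, set at 0.8% per 1000 barcodes) were removed. Barcodes were clustered on 2000 variable genes and 30 components (scikit-learn 1.9.0), with 15 neighbours and Leiden resolution 1.0 (leidenalg 0.10.2), giving 14 clusters. A cluster was named only where at least 3 markers and 40% of a class's markers were raised by 1 log2 unit, and a mixed cluster stayed unnamed.

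UMIs were summed per library and group of barcodes in Python 3.11.15 (numpy 2.4.6, scipy 1.17.1, pandas 2.3.3) and divided by the total. Intervals at 95% are exact Poisson for levels and exact conditional binomial for ratios, and were tested on simulated data. With 1 library per group there is no replicate check, no p-value was computed, and "past the fold" means a point ratio beyond 1.5 among genes with at least 20 UMIs in the groups compared. Log2 ratios had 0.5 count added. Named members were the most counted of each subfamily, the 10 highest and 10 lowest ratios and sex-biased members. Members highest outside the hepatocyte classes and the most distant in each comparison were named too. The members, lists and comparisons were chosen with earlier results of these data known, and support nothing by that choice. Mitochondrial strata use totals without mitochondrially encoded genes. Loop sequences are from the longest open reading frame of GENCODE transcripts.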

Additional observations from a re-analysis of the deposited data

Results flagged for a closer look

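Cyp2c70 was the member whose mitochondria-rich over mitochondria-poor ratio lay on opposite sides of 1 in the libraries, with both counting intervals clear of 1. In the scramble-labelled library the ratio was 0.792 (0.654 to 0.951), from 118 UMIs in the mitochondria-rich barcodes, and in the shBicd2-labelled library it was 4.22 (3.44 to 5.16), from 119 UMIs. The difference between the libraries was not tested, since barcodes are not replicates.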

How the results depend on the processing

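No paired analysis was possible because each group holds 1 library, and for the same reason no replicate could be left out. No member past 1.5-fold changed direction under the alternatives run, but 5 members within it crossed a ratio of 1: Cyp2j5 (0.866 to 1.01), Cyp2r1 (1.11 to 0.844) and Cyp2c37 (0.871 to 1.01) as a mean of barcode shares, Cyp2c68 (1.18 to 0.951) and again Cyp2c37 (1.07) at no more than 5% mitochondrial UMIs, and Cyp3a13 (0.870 to 1.02) without EGFP-bearing barcodes. The summed family ratio of 0.845 was 0.775 with the median gene scaled to a ratio of 1 (the median log2 ratio of 9867 genes with at least 50 UMIs was 0.13), 0.819 with totals without mitochondrial genes, Malat1 and Neat1, 0.889 as a mean of barcode shares, 0.806 at no more than 5% mitochondrial UMIs and 0.907 without EGFP-bearing barcodes. The median log2 ratio of 0.38 was 0.72 over the 27 members with at least 100 UMIs. At a fold of 2, 11 members were higher (11.4% of all genes) and 2 lower (3.97%). With EGFP, the 2 higher members of the scramble-labelled library became 4 of 25 (11.8% of all genes) when barcodes were thinned to 1000 UMIs and 1 of 34 with at least 2 EGFP UMIs, and the 19 lower of the shBicd2-labelled library became 11 of 27 when thinned, where 40.1% of all genes were lower and fewer members had enough UMIs. The 1 member lower in mitochondria-rich barcodes of the scramble-labelled library became 3 with strata of under 0.5% and 2 to 25%, 5 of 25 when thinned (41.4% of all genes) and 2 in hepatocyte barcodes only. The causes of these changes were not tested. Among single members, ratios moved beyond their counting intervals with the 5% limit (Cyp2e1, Cyp2d9 and Cyp2c70), without EGFP (Cyp3a13, Cyp3a25, Cyp2e1, Cyp2d22 and Cyp2d9) and with median scaling (Cyp2e1 and Cyp2c70). Depth limits every member near 20 UMIs, and intervals cover counting error alone.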
